A study of Homo sapiens with 12 samples.

Results

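QPRT, POLG, ESRRA, RMND5A, ARPC1A and MFHAS1 are 6 protein-coding genes whose mRNAs stood near the top of the eCLIP enrichment of dSpCas9 in HEK 293T cells. They were chosen by their measured enrichment in these same data, and they are not named in the study's text. Their peaks are all peaks in the 4 deposited lists that overlap, on the same strand and by at least 1 nt, an exon of any of their transcripts (GENCODE version 44, hg38). This rule gave 105 of the 18128 peaks in the 4 lists. All 6 genes had a peak in each list, which was true of 559 protein-coding genes in all.

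In eCLIP, UV light ties proteins to bound RNA while the cells are alive. The method then pulls 1 protein down by immunoprecipitation (IP) and reads out the RNA that came with it. HEK 293T is an established human line of embryonic kidney origin that makes the SV40 large T antigen. The cells carried a plasmid for dSpCas9, a Cas9 of Streptococcus pyogenes without nuclease activity, tagged with V5 or with 3xFLAG, or they carried the empty vector. According to the study, this dSpCas9 was expressed without a guide RNA and was mainly cytoplasmic. Each antibody had 2 libraries of each of 3 kinds, 12 in 6 groups: IP of tagged dSpCas9, size-matched input (RNA of the same membrane region, taken before IP), and IP of empty vector cells. All cells were transfected, the UV dose was 400 mJ/cm2 in 2 exposures, and membrane was taken from 115 kDa upward. The 4 lists compare the V5 IP with input, the V5 IP with the empty vector IP, the FLAG IP with input and the FLAG IP with the empty vector IP.

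Each peak has 1 enrichment for both replicates together, the log2 of the geometric mean of IP reads over control reads, and 1 −log10 p-value with a ceiling of 400. No list had a log2 enrichment under 3.00. Neither read counts nor values of the single replicates are part of the lists, so the depth is unknown and no enrichment below carries an error or a test. Differences between lists and genes are therefore descriptions, and whether any of them exceeds the spread between replicates cannot be said from these values. Since both lists of an antibody share their IP libraries, the 2 lists are not independent. An enrichment also does not tell apart how much of an mRNA was bound from how much of it the control held.

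Cas9 is a bacterial endonuclease that is directed to DNA by a guide RNA, which it holds through contacts with the stem-loops and the repeat part of that RNA. Part of that repeat is a GU in a loop next to a stem of 5 nt, and the study's GU-loop:5nt-stem rule searches other RNAs for this form. The 6 mRNAs encode proteins of unrelated function. QPRT makes nicotinic acid mononucleotide from quinolinic acid in the de novo synthesis of NAD. POLG is the catalytic subunit of the polymerase that copies mitochondrial DNA, and ESRRA (estrogen-related receptor alpha) is an orphan nuclear receptor that regulates genes of mitochondrial energy metabolism. RMND5A is a RING subunit of the CTLH ubiquitin ligase, ARPC1A is a WD-repeat subunit of the actin-nucleating Arp2/3 complex, and MFHAS1 is a leucine-rich repeat protein of the ROCO family with a GTPase-like domain.

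On every one of these mRNAs, the high values lay on 1 short stretch. These 6 stretches held 64 of the 105 peaks, and the other 41 peaks had log2 enrichments of at most 4.30. The stretches lay in different parts of the mRNA. They were at the very start of the canonical QPRT mRNA, over the stop codon of POLG, and inside the coding sequence (CDS) of ESRRA and ARPC1A. Those of RMND5A and MFHAS1 lay far downstream in the 3′ UTR. Among all 105 peaks, 12 overlapped a 5′ UTR, 76 a CDS and 25 a 3′ UTR, and 8 overlapped more than 1 region. QPRT alone gave 8 of the 5′ UTR peaks and 23 of the CDS peaks, many of them pieces of 1 stretch. Region shares over all peaks of the lists are not given here, so these counts are not read as particular to the 6 genes.

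**Figure D1:**
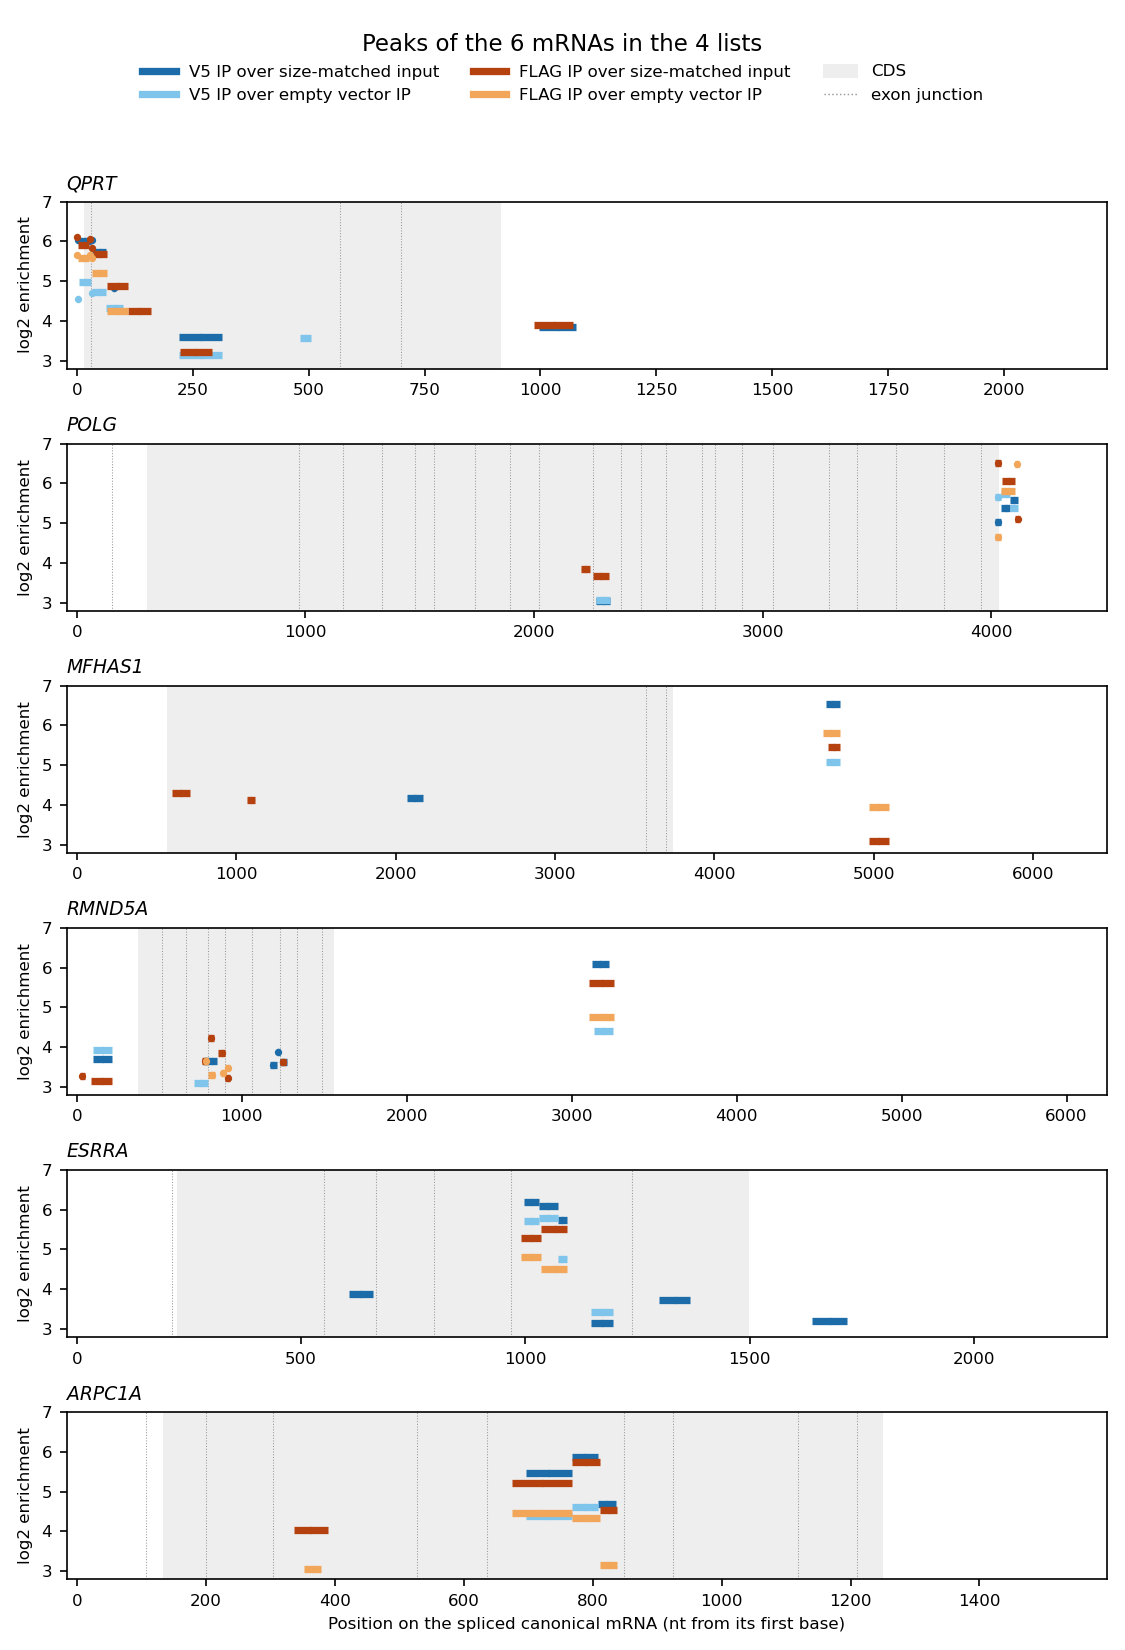
All 105 peaks along the 6 spliced canonical mRNAs (horizontal axis, nt from the first base) against the authors' log2 enrichment (vertical axis), 1 bar per peak and 1 colour per list, with the CDS shaded and exon junctions dotted. On each mRNA the highest bars of all 4 lists sit on 1 stretch, and bars elsewhere reach at most 4.30. The stretch is at the first bases of the canonical QPRT mRNA and at the stop codon of POLG. It is in the CDS of ESRRA and ARPC1A, and in the 3′ UTR of MFHAS1 and RMND5A.

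QPRT (ENSG00000103485, chr16:29663279-29698699, plus strand, 4 exons) had the most peaks of the 6 genes, 29 in all. The canonical mRNA of 2200 nt has a 5′ UTR of only 18 nt, and exon 1 is 31 nt long. The annotated gene begins further upstream, at 29663279, so at least 1 other transcript starts before the canonical first base at 29679180. Where the bases below lie in other transcripts was not examined. The highest peaks began just upstream of that canonical first base and ran through the start codon to the end of exon 1. Their highest log2 enrichment was 6.03 over V5 input, 4.96 over V5 empty vector, 6.10 over FLAG input and 5.65 over FLAG empty vector. Peaks then resumed at the first bases of exon 2, where the highest values were 6.02, 4.72, 5.83 and 5.58 in the same order. On the genome an intron separates these 2 loci, but on the spliced mRNA they adjoin. Over all 4 lists together they cover nt 1 to 161 and reach codon 48 of 297. FLAG input alone reached nt 161. The stretch ended at nt 110 over FLAG empty vector, 100 over V5 empty vector and 83 over V5 input. V5 input had no peak between nt 64 and nt 78.

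The 5′ end of QPRT is shown because its peaks cover the whole short leader, with the start codon in capitals, and because they pass without a gap from exon 1 (capitals) into exon 2. In the first sequence, the first 9 bases lie upstream of the canonical first base and are not part of the 18 nt leader.
QPRT chr16:29679171-29679200, plus strand: caccagcccagacagcugcaagucaccAUG
QPRT exon 1 from the start codon, spliced to exon 2 up to 29694742: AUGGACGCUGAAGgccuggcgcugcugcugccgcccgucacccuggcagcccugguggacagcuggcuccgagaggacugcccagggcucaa

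This stretch was divided finely, into 23 peaks over the 4 lists, of which the shortest had 2 nt. The FLAG input list had 7 of them, with log2 enrichments of 6.10 (12 nt), 5.91 (25 nt) and 6.06 (5 nt) in exon 1 and of 5.83 (5 nt), 5.67 (30 nt), 4.88 (45 nt) and 4.24 (51 nt) in exon 2. The enrichment was thus highest at the first bases and fell along exon 2. The V5 input list had 5, with 6.03 and 5.997 in exon 1 and 6.02, 5.74 and 4.83 in exon 2, which is the same order from 5′ to 3′ in exon 2. The FLAG empty vector list had 6, with 5.65, 5.57 and 5.65 in exon 1 and 5.58, 5.21 and 4.26 in exon 2. The V5 empty vector list had 5, with 4.56 and 4.96 in exon 1 and 4.70, 4.72 and 4.32 in exon 2, all lower than their V5 input counterparts. Of all 105 peaks of the 6 genes, 7 reached the −log10 p ceiling of 400, and 5 of these were in this stretch of QPRT. Over all peaks, the ceiling was reached by 273 of 6605 over V5 input and 345 of 6554 over FLAG input. It was reached by 37 of 3005 over V5 empty vector and 90 of 1964 over FLAG empty vector.

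The other 6 QPRT peaks were weaker. A second place in exon 2 (29694853-29694945, codons 68 to 99) had 3.60 over V5 input, 3.13 over V5 empty vector and 3.20 over FLAG input. Another one, in the 3′ UTR part of exon 4 (29697487-29697576, 76 to 165 nt after the stop codon), had 3.84 over V5 input and 3.88 over FLAG input and no peak over the empty vector. A single peak of 24 nt in exon 2 (29695114-29695137) appeared over V5 empty vector alone, at 3.58. No peak of QPRT lay in exon 3.

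POLG (ENSG00000140521, chr15:89305198-89334861, minus strand, 23 exons, mRNA of 4462 nt) had 16 peaks, and 12 of them lay in 1 locus of 110 nt in exon 23. This locus (89316657-89316766) begins in the last codons, spans the stop codon at 89316751-89316753, and ends 94 nt into the 3′ UTR. Its highest log2 enrichment was 5.58 over V5 input, 5.72 over V5 empty vector, 6.51 over FLAG input and 6.48 over FLAG empty vector. POLG had the highest value of the 6 mRNAs in both FLAG lists, but over FLAG empty vector this rests on a peak outside the reproducible intervals, and with the peaks behind those intervals POLG had 5.80 and MFHAS1 5.81. An exon of FANCI, on the opposite strand, covers the same locus, and no peak of any list lay there on the FANCI strand.

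Both printed stretches of POLG come from this locus: the 29 nt of its stop codon peak, with the stop codon in capitals, and a GU with its 5 stem bases that met the GU-loop:5nt-stem rule (capitals).
POLG chr15:89316737-89316765, minus strand: cagccuggaccaUAGcacugccuggaggc
POLG chr15:89316707-89316729, minus strand: uugcucccGUGGAGCuucaucgg

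Each list divided the POLG locus into 3 peaks, at most 1 nt apart, and the lists differed in which of the 3 was highest. From 5′ to 3′ on the mRNA, the stop codon peak, the middle peak and the last peak had 5.04, 5.37 and 5.58 over V5 input, and 5.65, 5.72 and 5.39 over V5 empty vector. Over FLAG input they had 6.51, 6.06 and 5.09, and over FLAG empty vector 4.66, 5.80 and 6.48. The stop codon peak was thus the highest of the 3 over FLAG input and the lowest over FLAG empty vector, although both lists use the same IP libraries. The 3′-most peaks over FLAG input (19 nt) and over FLAG empty vector (17 nt) are short. The one over FLAG empty vector gives the POLG maximum in that list, and each of the other lists has a peak that overlaps it.

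Upstream, POLG had 4 weak peaks in the CDS. A locus at the start of exon 11 (89324154-89324228, codons 650 to 675) had 3.04 over V5 input, 3.08 over V5 empty vector and 3.67 over FLAG input. In exon 10 (89325467-89325504, codons 632 to 644), a peak appeared over FLAG input alone, at 3.84. FLAG empty vector had no POLG peak outside exon 23. In V5 input, the highest and second locus of POLG were 2.54 apart on the log2 scale, the widest such gap in that list among the 5 genes with a second locus.

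ESRRA (ENSG00000173153, chr11:64305497-64316743, plus strand, 7 exons, mRNA of 2274 nt) had 15 peaks, 10 of them in 102 nt of exon 6 (64315025-64315126, codons 256 to 290 of 423). This locus gave the gene its highest value in all 4 lists, 6.18 over V5 input, 5.79 over V5 empty vector, 5.51 over FLAG input and 4.81 over FLAG empty vector. Both V5 lists had the same 3 peaks there, with 6.18, 6.10 and 5.73 over input and 5.71, 5.79 and 4.76 over empty vector. Both FLAG lists had the same 2 peaks, with 5.29 and 5.51 over input and 4.81 and 4.50 over empty vector. The V5 maxima exceeded the FLAG maxima by 0.67 over input and by 0.98 over empty vector.

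The exon 6 stretch of ESRRA is shown with its GU dinucleotides in capitals, since it holds 8 of them. Of these, 6 lay with room for 5 more bases inside a reproducible interval, and 0 of the 6 met the GU-loop:5nt-stem rule.
ESRRA chr11:64315032-64315125, plus strand: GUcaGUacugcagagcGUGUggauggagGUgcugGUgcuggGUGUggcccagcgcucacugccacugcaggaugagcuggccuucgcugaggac

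The remaining 5 ESRRA peaks were all V5 peaks. They lay downstream in exon 6 (64315180-64315229) with 3.16 over input and 3.43 over empty vector, and, over V5 input alone, in exon 3 with 3.87, in exon 7 within the CDS with 3.72, and in the 3′ UTR part of exon 7 with 3.21. Neither FLAG list had an ESRRA peak outside the main locus. ESRRA was the only one of the 6 genes with more V5 input peaks (7) than FLAG input peaks (2).

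RMND5A (ENSG00000153561, chr2:86720291-86778041, plus strand, 9 exons, mRNA of 6183 nt) had 23 peaks, spread over more places than on any other of these mRNAs. Its highest peak in every list was a single interval of the 3′ UTR (exon 9, 86774965-86775117, 1554 to 1706 nt after the stop codon). The log2 enrichment there was 6.08 over V5 input, 4.42 over V5 empty vector, 5.62 over FLAG input and 4.77 over FLAG empty vector. Both V5 and FLAG were thus lower over empty vector than over input. The peak was not divided in any list, and both FLAG lists gave it the same 153 nt.

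A pair of RMND5A parts is shown. The first is the end of exon 3, with, in capitals, a GU and 5 stem bases that met the GU-loop:5nt-stem rule only with spliced flanks, and the second is 30 nt of the 3′ UTR peak with GU in capitals.
RMND5A chr2:86752004-86752029, plus strand: cuggauGUGGCUGaggagcucuguca
RMND5A chr2:86775025-86775054, plus strand: cGUgcuGUgcggcuucaccagcgGUuggga

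The CDS of RMND5A had 15 peaks in 6 loci, and these loci formed 3 pairs that face each other across an exon junction and adjoin on the spliced mRNA. The first pair, the end of exon 3 and the start of exon 4 (codons 113 to 157), had 3.65 and 3.64 over V5 input, 3.66 and 4.23 over FLAG input, and 3.64 and 3.31 over FLAG empty vector, while over V5 empty vector the exon 3 side alone had a peak, at 3.10. The second pair, the end of exon 4 and the start of exon 5 (codons 161 to 185), was a FLAG pair, with 3.85 and 3.22 over input and 3.34 and 3.49 over empty vector. In the third pair, on exons 6 and 7 (codons 265 to 299), V5 input had 3.54 and 3.88 on exon 6 and 3.62 on exon 7, and FLAG input had 3.63 on exon 7. Of the 23 RMND5A peaks, 14 had an edge within 2 nt of an inner exon end. QPRT had 11 such peaks of 29, POLG 1 of 16, and ESRRA, ARPC1A and MFHAS1 had 0. Over the 6 genes this made 26 of 105 peaks (24.8%), beside 24.9% of all peaks on canonical exons.

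In the 5′ UTR of RMND5A, exon 1 had a peak at 86720379-86720504 with 3.70 over V5 input, 3.92 over V5 empty vector and 3.16 over FLAG input. A shorter peak further upstream (86720309-86720337) had 3.27 over FLAG input alone. Over V5 empty vector, the 5′ UTR value of 3.92 was 0.49 below the 3′ UTR maximum, the smallest gap between main stretch and second locus on any of the 6 mRNAs.

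ARPC1A (ENSG00000241685, chr7:99325898-99366262, plus strand, 10 exons, mRNA of 1582 nt) had the fewest places with a peak: 13 peaks in 2 loci, both in the CDS. The main locus in exon 6 (99353948-99354110, codons 180 to 234 of 370) held 11 of them. Its highest values were 5.87 over V5 input, 4.61 over V5 empty vector, 5.75 over FLAG input and 4.47 over FLAG empty vector. A readthrough gene without a symbol, ENSG00000284292, shares these exons on the same strand and overlapped all 13 peaks, so the peaks could belong to either transcript.

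The exon 6 stretch of ARPC1A is shown with GU in capitals. It is the longest unbroken stretch of the 6 genes that all 4 lists share.
ARPC1A chr7:99353969-99354080, plus strand: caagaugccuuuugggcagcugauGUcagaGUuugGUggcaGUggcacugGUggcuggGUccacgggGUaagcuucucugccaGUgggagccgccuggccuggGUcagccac

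All 4 lists divided the ARPC1A locus at the same base, 99354041. The 5′ part had 5.46 over V5 input, 4.39 over V5 empty vector, 5.22 over FLAG input and 4.47 over FLAG empty vector, and the part that begins at 99354041 had 5.87, 4.61, 5.75 and 4.34. This second part was the higher one in every list except FLAG empty vector. The last part, at the 3′ end, had 4.69 over V5 input, 4.55 over FLAG input and 3.15 over FLAG empty vector, and no peak over V5 empty vector. The second locus, in exon 4 (99344325-99344377, codons 68 to 85), was a FLAG locus with 4.02 over input and 3.05 over empty vector.

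MFHAS1 (ENSG00000147324, chr8:8783354-8893630, minus strand, 3 exons, mRNA of 6399 nt) had 9 peaks, the fewest of the 6 genes. The main peak lay in the 3′ UTR (exon 3, 8784965-8785072, 950 to 1057 nt after the stop codon), and each list had it as 1 undivided peak. Its log2 enrichment was 6.55 over V5 input, the highest value of all 105 peaks, 5.08 over V5 empty vector, 5.47 over FLAG input and 5.81 over FLAG empty vector. The V5 and FLAG lists therefore ordered their controls differently: V5 was higher over input than over empty vector and FLAG the reverse. Its −log10 p-values were 26.0 and 16.1 in the V5 lists and 11.1 and 8.58 in the FLAG lists, and in both FLAG lists the highest peak of each of the other 5 mRNAs had a larger one.

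The other MFHAS1 peaks were found with 1 antibody each. A second 3′ UTR locus (8784656-8784783, 1239 to 1366 nt after the stop codon) had 3.10 over FLAG input and 3.95 over FLAG empty vector. Exon 1, which holds most of the CDS, had 3 single peaks: 4.18 over V5 input (codons 500 to 534), and 4.13 (codons 166 to 183) and 4.30 (codons 9 to 47) over FLAG input.

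Set side by side, the 6 highest values ranged from 5.58 (POLG) to 6.55 (MFHAS1) over V5 input, from 5.47 (MFHAS1) to 6.51 (POLG) over FLAG input, from 4.42 (RMND5A) to 5.79 (ESRRA) over V5 empty vector, and from 4.47 (ARPC1A) to 6.48 (POLG) over FLAG empty vector. The ranges over input follow in part from the choice of genes with high values there. Over input, V5 exceeded FLAG by 1.08 for MFHAS1, 0.67 for ESRRA, 0.46 for RMND5A and 0.12 for ARPC1A, while the difference V5 minus FLAG was -0.07 for QPRT and -0.93 for POLG. Over empty vector, it was 0.98 for ESRRA, 0.14 for ARPC1A, -0.35 for RMND5A, -0.69 for QPRT, -0.73 for MFHAS1 and -0.76 for POLG. The sign was therefore the same with both controls for ESRRA and ARPC1A (V5 higher) and for QPRT and POLG (FLAG higher), and it changed for MFHAS1 and RMND5A. The POLG difference over empty vector rests on the FLAG peak outside the reproducible intervals. That peak (89316661-89316677) was left out because the overlap rule counts the share of the V5 interval. Peaks of all other lists overlap it, at 89316663-89316699 in both V5 lists and at 89316657-89316675 over FLAG input. Whether it is kept with FLAG taken first is not given here. With the peaks behind the reproducible intervals, POLG had 5.72 over V5 empty vector and 5.80 over FLAG empty vector, which are close.

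**Figure D2:**
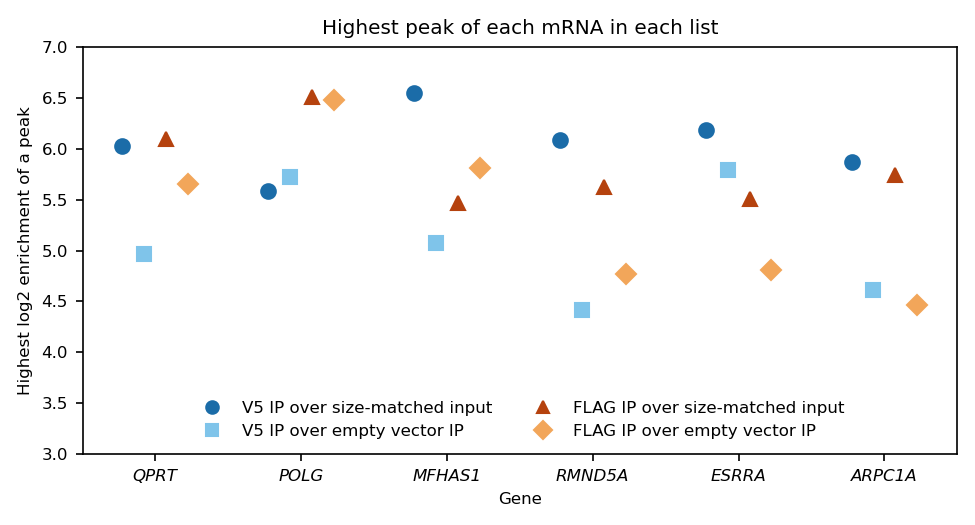
Highest log2 enrichment (vertical axis) of a peak of each of the 6 mRNAs (horizontal axis) in each of the 4 lists, 1 point per gene and list, each combining 2 replicates, with no error available. The points over input lie between 5.47 and 6.55, and those over the empty vector between 4.42 and 6.48. POLG alone is above 6 over the empty vector, through a peak outside the reproducible intervals, for which the V5 interval was taken first.

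By the average of their V5 and FLAG maxima over input, the 6 mRNAs ranked 6 (QPRT, 6.06), 7 (POLG, 6.05), 9 (MFHAS1, 6.01), 11 (RMND5A, 5.85), 12 (ESRRA, 5.85) and 15 (ARPC1A, 5.81) of the 1857 protein-coding genes with a peak in both input lists. No replicate spread is available to separate neighbours in this order. All 6 had a maximum of at least 5 in both input lists, as did 3.18% of those genes, which is a consequence of how they were chosen. By the mean over all 4 lists, among 559 genes, POLG ranked 4, MFHAS1 8, QPRT 9, ESRRA 11, RMND5A 23 and ARPC1A 28. With the empty vector counted, RMND5A and ARPC1A thus fell the most and POLG rose the most. The POLG rank of 4 uses its 6.48 over FLAG empty vector, and was not recomputed without that peak.

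**Figure D3:**
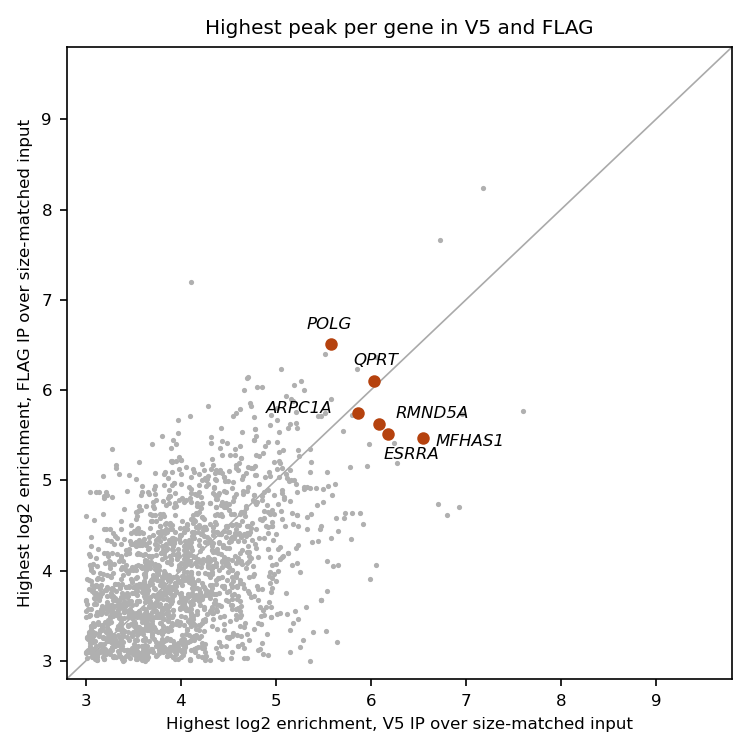
Highest log2 enrichment per gene over size-matched input in the V5 list (horizontal axis) and the FLAG list (vertical axis) for 1857 protein-coding genes (grey points), with the 6 genes in red and the line of equal values. The 6 red points lie in the upper right of the cloud, with POLG above the line, QPRT close to it and MFHAS1 farthest below it.

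Among the single peaks, 14 of 30 had a log2 enrichment of at least 5 over V5 input (4.48% of all peaks in that list), 6 of 21 over V5 empty vector (4.29%), 14 of 32 over FLAG input (5.80%) and 8 of 22 over FLAG empty vector (4.12%). These counts describe the choice of the genes. The median log2 enrichment of their peaks was 4.76, 4.61, 4.43 and 4.58 in the same order of lists, against 3.61, 3.61, 3.63 and 3.59 over all peaks. The median length of the peaks of the 6 mRNAs was 41.5 nt over V5 input, 37 over V5 empty vector, 44 over FLAG input and 32 over FLAG empty vector, against 74, 73, 71 and 74 nt over all peaks. The divided main stretches of QPRT, POLG, ESRRA and ARPC1A gave peaks of 2 to 93 nt, while the undivided main peaks of RMND5A and MFHAS1 had 74 to 153 nt.

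The peaks over input and those over the empty vector mostly fell in the same places. Of the V5 input peaks of the 6 mRNAs, 20 of 30 (66.7%) overlapped a V5 peak over empty vector, beside 36.0% over all V5 input peaks. For FLAG, 22 of 32 (68.8%) did so, beside 27.9%. These shares follow in part from the choice of genes with high enrichment, and the 2 lists of an antibody share their IP libraries. Several of the peaks are pieces of 1 stretch, so they are not separate sites. Merging touching peaks across the lists gave 29 loci on the genome. Of these, 8 had a peak in all 4 lists, 4 in 3 lists, 7 in 2 lists and 10 in only 1 list. The 8 loci with 4 lists were the 6 main stretches (QPRT counts for both of its exons) and the end of RMND5A exon 3.

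Taking the part that all 4 lists share, with at least 50% of the first interval covered, left 15 reproducible intervals of 749 in all. The 749 intervals were made here from the deposited lists. They are not the study's own set of reproducible peaks, which has a different count. QPRT had 4, POLG and ESRRA 3 each, RMND5A and ARPC1A 2 each and MFHAS1 1. All but 1 of the 15 lay in the main stretches, and the exception was the end of RMND5A exon 3, whose enrichments of 3.65, 3.10, 3.66 and 3.64 were near the lower limit of the lists. Of the 15 intervals, 2 overlapped the 5′ UTR, 10 a CDS and 5 a 3′ UTR, and the regions of all 749 are not given here. The 15 intervals had a median length of 29 nt, against 58 nt over all 749, and a median GC content of 60.7%, against 58.5%. The QPRT interval at the start of exon 2 reached 79.3% GC and the MFHAS1 interval had 43.2%, which was the lowest of the 15.

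The reproducible intervals were searched for the GU-loop:5nt-stem with 50 nt of genomic flank. A GU with 5 bases right after it met the rule if the predicted pairing probability was under 0.7 for the U and over 0.5 for all 5 bases. Of the 15 intervals, 2 (13.3%) held such a GU, beside 36.6% of all 749 reproducible intervals. Both were in 3′ UTRs: the GUGGAGC of POLG at 89316715-89316721, downstream of the stop codon, and one in the main peak of MFHAS1. The predicted pairing in POLG was 0.372 for the U and 0.692 to 0.934 for the 5 stem bases, and in MFHAS1 the values were 0.441 and 0.699 to 0.920. When the touching POLG intervals were joined, a step chosen after seeing the data, the joined stretch held 2 such GU. The other one crosses the edge between the intervals and had 0.513 for the U and 0.724 to 0.933 for the stem. An interval must hold all 7 bases to be called, and 1 of the 15 was shorter than that, as were 43 of the 749. The part of interval length in the 2 shares was not tested.

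The other 4 mRNAs missed the rule by different steps. Across the 15 intervals there were 31 GU dinucleotides with room for 5 more bases, 19 with the U under 0.7, and 3 with all 5 following bases over 0.5. QPRT had only 2 GU of this kind, with at most 2 stem bases over 0.5. ESRRA had 6 and ARPC1A had 8, with at most 4 of 5 stem bases over 0.5 in each. RMND5A had 8, and 1 of them, in the 3′ UTR peak, was followed by 5 paired bases while its U was itself paired with a probability of 0.935. When the flanks were taken from the spliced mRNA, the GUGGCUG at the end of RMND5A exon 3 was called as well, with 0.50 for the U and 0.531 to 0.919 for the stem, and the count became 3 of 15.

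**Figure D4:**
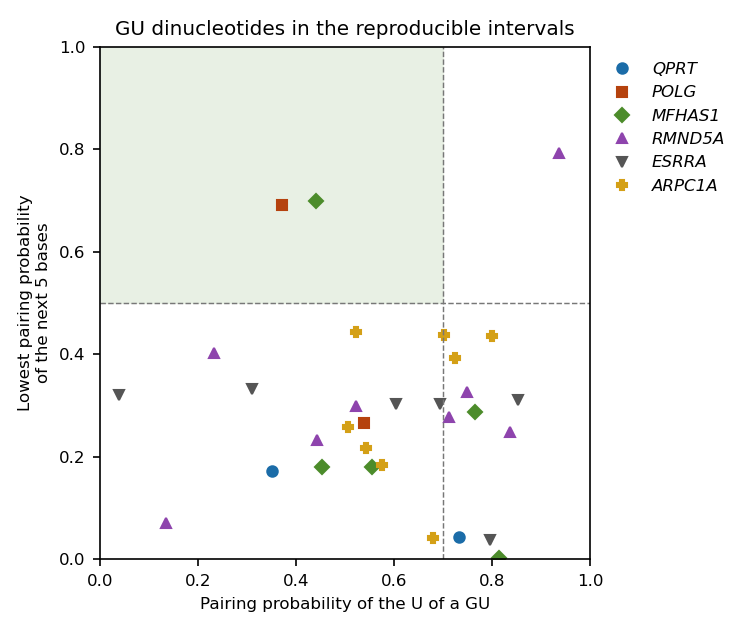
Each of the 31 GU dinucleotides with room for 5 more bases inside a reproducible interval of the 6 mRNAs, by the pairing probability of its U (horizontal axis) and the lowest pairing probability among the 5 bases that follow (vertical axis), with the thresholds dashed and the called area shaded. Intervals were searched singly, so the POLG GU that crosses the edge between 2 touching intervals has no point. POLG and MFHAS1 have 1 point each in the shaded area, and RMND5A has 1 point with 5 paired bases whose U is paired with a probability of 0.935.

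The lists were also searched for genes that work with the 6 in the same pathway or complex. Of 15 other genes of NAD synthesis, 2 had a peak in at least 1 list and 0 in all 4. Of 13 other genes of mitochondrial DNA replication and transcription, 6 had a peak in at least 1 list, and 1, TOP3A (a topoisomerase that also acts in mitochondria), had one in all 4, at 3.85, 3.49, 3.53 and 3.79 over V5 input, V5 empty vector, FLAG input and FLAG empty vector. Among 3 other ROCO proteins, 1 had a peak, among 11 other estrogen-related receptors and coregulators 2, and among 8 other Arp2/3 subunits 1, and 0 of these had one in all 4 lists. Over all 20020 protein-coding genes, 18.1% had a peak in at least 1 list and 2.79% in all 4.

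Of 10 other subunits of the CTLH ligase of RMND5A, 6 had a peak in at least 1 list and 2 had one in all 4. MAEA, the RING partner of RMND5A, had highest values of 3.91, 4.02, 5.20 and 4.10 in the order used above, and GID4, the substrate receptor, had 5.62, 4.10, 4.96 and 4.57. Expression levels were not analysed here, and the part of mRNA abundance in these counts was not tested.

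The gene most like each of the 6 in its 4 maxima, by Euclidean distance over the 4 lists among 559 genes and leaving out genes that share its peaks (ENSG00000284292 for ARPC1A), was POMP for RMND5A (distance 0.367), HDLBP for ARPC1A (0.421), ZNF496 for MFHAS1 (0.695), ACTR1A for QPRT (0.723), RPLP0 for ESRRA (0.80) and CDKN1A for POLG (0.834). CDKN1A had 5.52 over V5 input, 4.90 over V5 empty vector, 6.40 over FLAG input and 6.49 over FLAG empty vector. It was picked for its closeness to POLG in these same values, so the likeness follows from the choice. The POLG maximum over FLAG empty vector, 6.48, rests on a peak outside the reproducible intervals, and the distance was not recomputed without it. Processed pseudogenes with sequence close to a parent mRNA could take reads from it. None of the 4 ARPC1A and 2 ESRRA pseudogenes found by symbol in the annotation held a peak. A lack of peaks there cannot show whether reads were lost to them, which was not tested.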

How the data were processed

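The authors aligned reads to hg38, called peaks, and merged 2 replicates per comparison by the Irreproducible Discovery Rate. The submitters' processing notes name cutadapt 1.14, STAR 2.4.0i, UMI-tools 1.0.0 and SAMtools 1.6. In the deposited lists the authors give, for each peak, a log2 enrichment and a −log10 p-value, with their filters already applied. The peak caller version and the scaling for library size are not given in the sources used here. Depth is unknown.

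Here, peaks were assigned to GENCODE version 44 exons and to regions of the canonical transcript. Lists were intersected with bedtools 2.31.1 (V5 lists, FLAG lists, then V5 against FLAG; 50% of the first interval, same strand). Pairing came from RNAplfold (ViennaRNA 2.7.2, window 70, span 70). Positions are 1-based on hg38 and sequences were read from it. Python 3.11.15, numpy 2.4.6 and pandas 2.3.3 were used, and the steps were tested on simulated data. The named genes were the 6 members, the gene most like each (genes sharing its peaks were left out after the data were seen), companion genes with a peak in all 4 lists and same-strand genes sharing their peaks. FANCI and the pseudogenes were named after their positions were seen. The members and lists were chosen with earlier results of these data known. No test was run.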

Additional observations from a re-analysis of the deposited data

How the results depend on the processing

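No paired analysis was possible because each list holds 1 value per peak for both replicates, and no replicate could be left out for the same reason. With a log2 enrichment of at least 4, the peaks of the 6 mRNAs numbered 17 of 30 over V5 input and 21 of 32 over FLAG input. With a −log10 p of at least 10 they numbered 18 over V5 input and 21 over FLAG input. The shares of all peaks that pass these cuts are not given here, so the counts show only how they depend on the cut. Merging touching peaks left 13 over V5 empty vector and 13 over FLAG empty vector. By the region at the midpoint, 7.62% of peaks were in a 5′ UTR in place of 11.4%, since several QPRT peaks have their midpoint upstream of the canonical first base. The motif count of 2 fell to 0 with stem bases over 0.7, as the lowest stem base of both lay just under it. Merging touching reproducible intervals, an alternative chosen after seeing the data, gave 2 of 12, beside 273 of 670 for all. At a log2 of at least 4, companion genes with a peak numbered 7 in at least 1 list in place of 18, and 1 in all 4 lists in place of 3. The share of all genes at that cut is not given here. The 15 reproducible intervals became 13 to 22 under other overlap rules, and 14 with a log2 of at least 4 in all lists, where all 749 became 160. Of 24 highest values, 23 stayed the same when taken from peaks behind reproducible intervals. The POLG value over FLAG empty vector became 5.80 in place of 6.48, which put it below MFHAS1 (5.81) in that list. The POLG peak with 6.48 overlaps peaks of all other lists, but the shared part is too small a share of the V5 interval. Whether that peak is kept with FLAG taken first is not given here. The unknown depth limits every comparison between lists.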
